A study of Populus alba x Populus glandulosa with 18 samples.

Results

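The genes described here make, break down and respond to gibberellin (GA), and 97 of the 42950 poplar gene models in the deposited table belong to them. A gene model was taken when its description named gibberellin or GAST1 (47 models) or when one of its Arabidopsis-derived symbols was that of a known GA enzyme, receptor, DELLA protein or GASA peptide (80 models), and 30 models met both. The symbols come from the annotation's best Arabidopsis match, so a symbol shared by several copies marks a family and not a one-to-one counterpart. By role there were 2 *CPS1*, 3 *KS1*, 1 *KO1* and 6 *KAO* models of early synthesis, 8 GA 20-oxidases, 4 GA 3-oxidases, 15 GA 2-oxidases, 4 GID1 receptors, 32 DELLA-type models and 22 GASA or other gibberellin-regulated proteins. Of the 97, 33 had no count in any library and 42 had under 20 counts in all 18 libraries together, 23 of them DELLA-type models.

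The samples were stems of the hybrid poplar 84K (*Populus alba* × *P. glandulosa*), either wild type or overexpressing *PagDET2* (PagDET2-OE), the poplar gene of a steroid reductase early in brassinosteroid synthesis. The trees were 2 months old and untreated, and RNA was sequenced from 3 stem domains with 3 libraries per genotype and domain, 18 in all. The primary stem (PS) pooled the shoot apex with the first elongating internodes and is labelled shoot apical meristem, the bark (BA) held differentiating phloem and cambium and is labelled cambium, and xylem (XY) was the tissue on the surface of the debarked trunk. The transgene ran from the constitutive 35S promoter in independent lines, the labels do not say which line a library came from, and in bulk tissue fewer cells of a type and less RNA per cell cannot be told apart.

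As background, active GAs are built from geranylgeranyl diphosphate. The plastid enzymes CPS and KS close the rings, the cytochrome P450 enzymes KO and KAO oxidise the product to the first GA, GA 20-oxidases and GA 3-oxidases complete the active hormone, and GA 2-oxidases inactivate it. GA binds the receptor GID1, which then leads the growth-repressing DELLA proteins to degradation, and GASA genes encode small cysteine-rich peptides many of which respond to GA. In poplar stems GA is known for promoting elongation, cambial growth and fibre formation. High GA signalling lowers GA 20-oxidase and GA 3-oxidase transcripts and raises those of GA 2-oxidases in Arabidopsis, a feedback that keeps the pathway in balance.

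Libraries held 7983668 to 12052409 counts, of which the 97 genes together took 0.0839% to 0.217%. *PagDET2* checked the labels, with 12777 to 25649 counts in the PagDET2-OE libraries, against 46 to 81 in the 84K libraries. Tissue markers matched the domains in part. All 25 tested markers of developing xylem were at least 2-fold higher in 84K XY than in 84K BA, and 6 of 7 phloem markers were at least 2-fold lower there. Of the apex markers, 1 *WUSCHEL* model had 4 counts over the PagDET2-OE PS libraries and none over the 84K PS libraries, and the other had none in PS but 191 in PagDET2-OE XY and 208 in 84K XY. *STM* Potri.011G011100 was at 58.25 FPKM in 84K PS and 68.84 FPKM in 84K BA. Of 11 tested apex markers, 2 were at least 2-fold higher in 84K PS than in 84K BA (*CLV1* Potri.002G019900 and *KNAT6* Potri.008G188700) and 1 was at least 2-fold lower, while all 8 tested markers of epidermis were at least 2-fold higher in 84K PS. Replicate 3 stood apart from replicates 1 and 2 in each of the 6 groups.

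Levels below are the deposited FPKM (fragments per kilobase of transcript, scaled to the library's total), which can be compared between genes. Fold changes come from the deposited counts after TMM scaling, tested with edgeR's quasi-likelihood test, and p-values were adjusted over all genes tested in a comparison. A gene passed the test when its adjusted p did not exceed 0.05, and it was a differentially expressed gene (DEG) when it also differed 2-fold or more. The ± after a log2 fold change is its SE and that after a level is the SD, each from 3 libraries a group. FPKM divides by the library total and TMM rescales it, by factors between 0.7547 and 1.148 over the 84K libraries, which shifts every log2 difference of XY from BA by 0.575 and of XY from PS by 0.582. Small differences between XY and another domain can thus change order and are then given on both scales.

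The first question was where each gene is used in the wild-type stem. Of 43 GA genes tested in the 84K libraries, 25 were DEGs between XY and BA, beside 37.6% of all genes, with 7 higher in XY (16% of all genes) and 18 lower (21.7%). Between PS and BA there were 26 DEGs, beside 28.7% of all genes, with 12 higher in PS (14.7%) and 14 lower (14%). Between XY and PS there were 24 DEGs, beside 46.1%, with 8 higher in XY (19.3%) and 16 lower (26.8%). Whatever the fold, 37, 37 and 35 passed in the 3 comparisons, beside 71.9%, 67.9% and 78.7% of all genes. These were 10 higher (33.6%) and 27 lower (38.3%) in XY against BA, 15 higher (34.8%) and 22 lower (33.2%) in PS against BA, and 16 higher (36.6%) and 19 lower (42.1%) in XY against PS. By the fitted values 22 genes were highest in BA, 13 in PS and 8 in XY, and 19, 10 and 6 of these passed against both other domains. Of all genes tested, 27.3% were highest in BA, 36.5% in PS and 36.2% in XY, and 15.4%, 24.2% and 26.3% also passed against both other domains. On the FPKM scale, 24 GA genes were highest in BA, 15 in PS and 4 in XY, beside 37.2%, 43.9% and 18.9% of all genes. A gene could enter this fit through its counts in a single domain. *GA2OX8* Potri.001G418200 did so, with 24, 15 and 26 counts in 84K PS and none in 84K BA or XY. For such genes some difference between domains was built into their being tested, and how many there were was not counted.

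**Figure D1:**
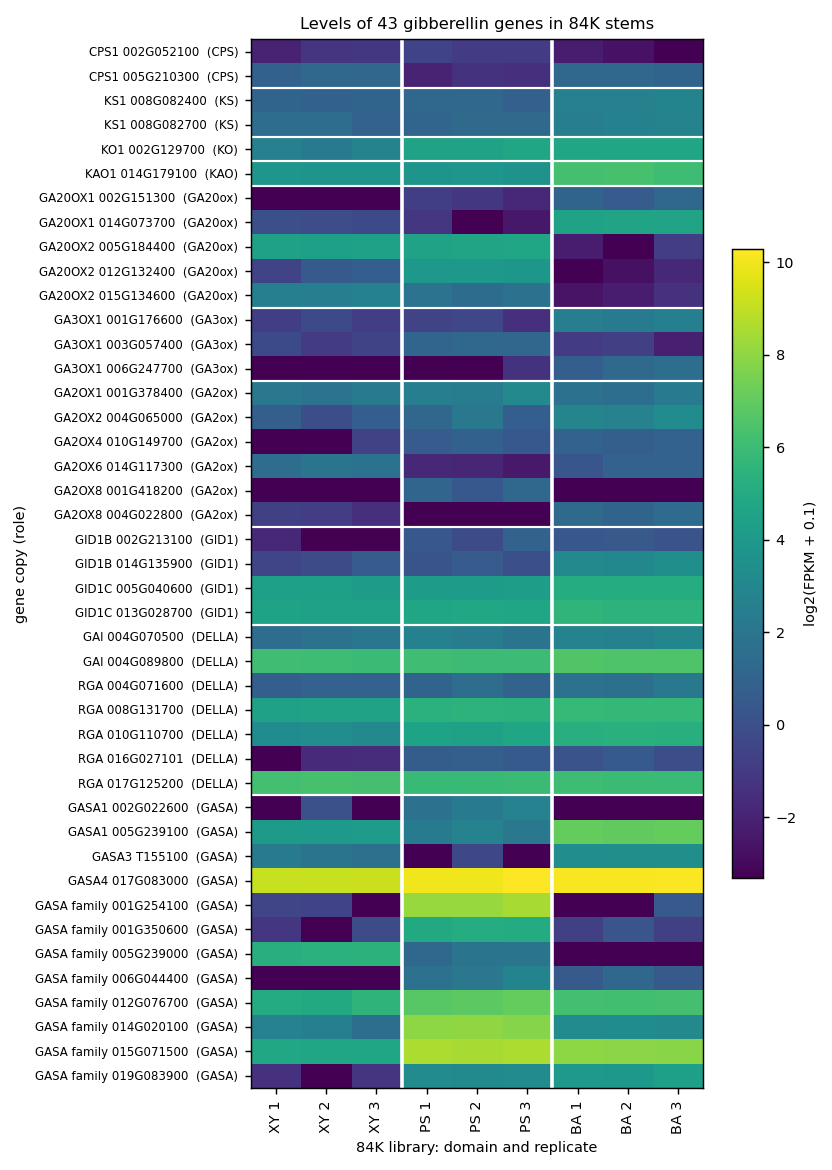
Level of each of the 43 tested GA genes (rows, ordered by role) in the 9 libraries of 84K (columns: 3 replicates each of XY, PS and BA), coloured by log2(FPKM + 0.1). The GA 20-oxidase rows show copies that are high in PS and XY and near 0 in BA, beside copies with the reverse pattern, and *GASA4* is the brightest row in every domain.

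The second question was what *PagDET2* overexpression does to these genes. In XY, 5 of 28 tested GA genes were DEGs, beside 3.1% of all genes, with 4 higher in PagDET2-OE (1.15% of all genes) and 1 lower (1.95%). One of the 4, *GA2OX1* Potri.011G095600, was tested through its PagDET2-OE counts alone. In BA there were 2 of 32, beside 1.24%, with 1 higher (0.892%) and 1 lower (0.351%). In PS there were 2 of 38, beside 1.01%, with 1 higher (0.471%) and 1 lower (0.534%), and the lower one, *GA2OX8* Potri.001G418200, was tested through its 84K counts alone. Smaller changes included, 10 GA genes passed in XY, beside 19.4% of all genes, 5 of them higher (10%) and 5 lower (9.34%). In BA 5 passed, beside 11.5%, 3 of them higher (6.19%) and 2 lower (5.34%), and in PS 10 passed, beside 15%, 5 of them higher (8.08%) and 5 lower (6.9%). The median log2 fold change over the tested GA genes was −0.19 in XY, −0.13 in BA and −0.03 in PS, and that over all genes tested was −0.0046 in XY, 0.00019 in BA and 0.0013 in PS. Over the 3 domains 21 GA genes passed in at least 1 and 3 passed in more than 1, these being *GA2OX1* Potri.001G378400, *GASA1* Potri.005G239100 and the GASA family gene Potri.014G020100. Shares over all genes were not counted for totals joined over domains, so such totals are descriptions only. The FPKM of the 2 genotypes did not overlap for 18 of 28 tested GA genes in XY, 17 of 32 in BA and 18 of 38 in PS. A lack of overlap was thus common, its share over all genes was not counted, and it is given below as a description only. The genotype effects of 2 domains were also tested against each other in one model. Between XY and BA they differed for 5 of 46 GA genes, beside 13.3% of all genes, with 3 higher in XY (6.9%) and 2 lower (6.42%). Between XY and PS they differed for 7, beside 10.1%, with 3 higher in XY (5.12%) and 4 lower (5.01%). Between BA and PS they differed for 6, beside 9.27%, with 2 higher in BA (4.74%) and 4 lower (4.53%), which makes 18 differences in 14 genes.

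**Figure D2:**
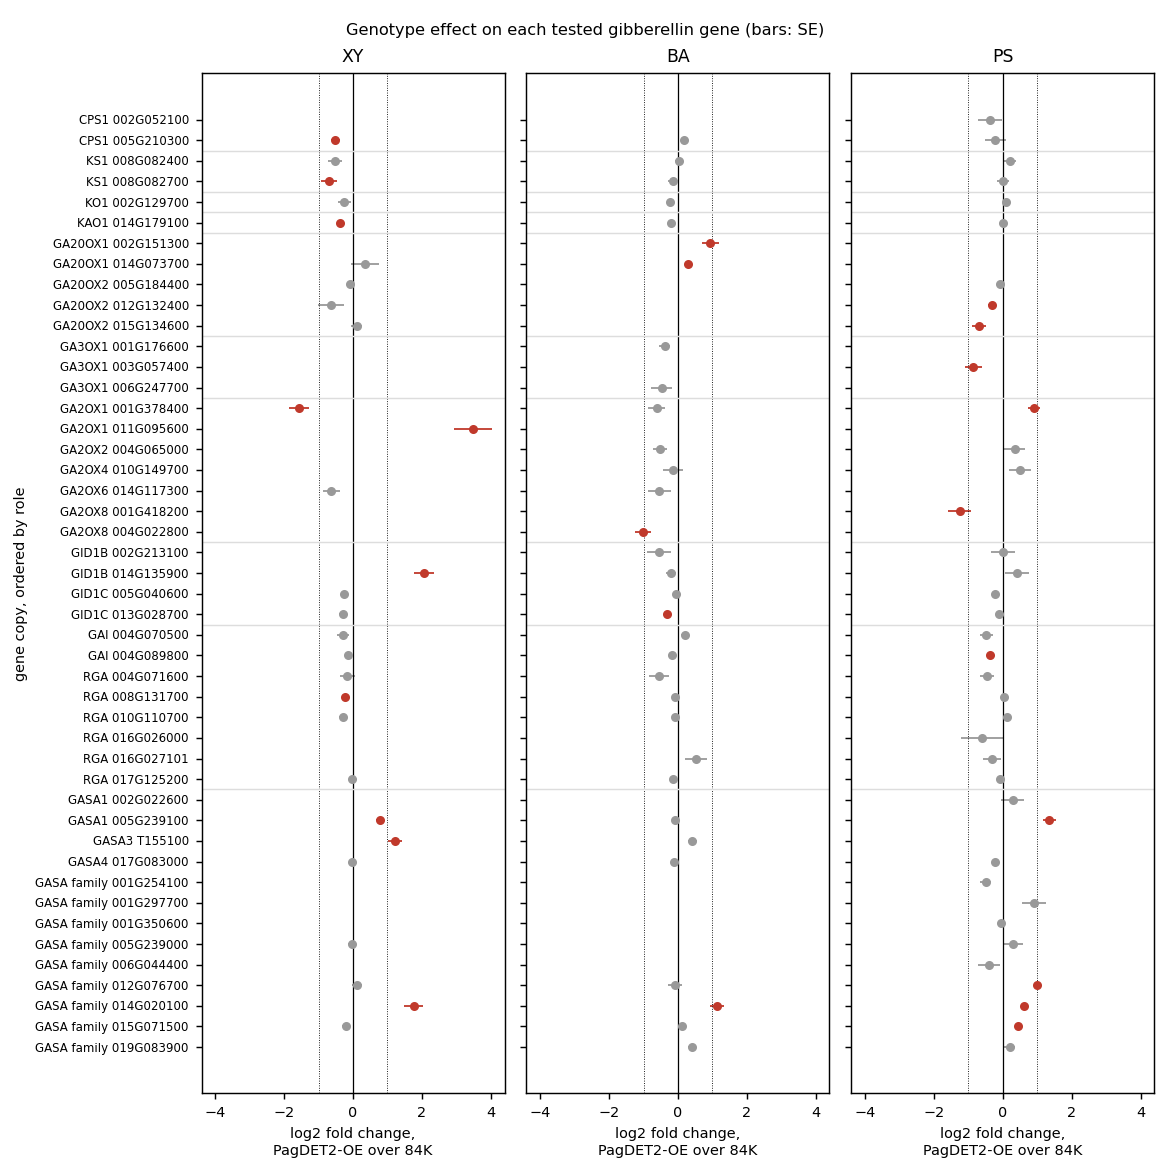
Log2 fold change of PagDET2-OE over 84K (dots, with bars of 1 SE) for each of the 46 GA genes tested in at least 1 domain, in XY, BA and PS, with red for genes that passed the test, grey for those that did not, and dotted lines at 2-fold. A missing dot means that the gene had too few counts for a test. GASA family genes hold most of the red dots to the right, and the widest shifts in XY are *GA2OX1* Potri.011G095600 (3.48, tested through its PagDET2-OE counts alone), *GID1B* Potri.014G135900 (2.07) and the GASA family gene Potri.014G020100 (1.76).

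Of the 5 genes of early GA synthesis tested in XY, 3 passed as lower in PagDET2-OE, beside 9.34% of all genes, and none passed in another domain. *CPS1* Potri.005G210300 (chromosome 5, 22431025 to 22440223), which commits the precursor to the pathway, had 1.49, 1.25 and 1.39 FPKM in PagDET2-OE XY, against 1.77, 2.20 and 2.15 FPKM in 84K XY. The groups did not overlap, and the log2 fold change was −0.51 ± 0.13 (SE, n = 3 each, adjusted p = 0.0124). *KAO1* Potri.014G179100 (chromosome 14, 14714558 to 14722066), which makes the first GA, had 9.48, 10.7 and 9.02 FPKM in PagDET2-OE XY, against 13.96, 13.0 and 12.9 FPKM in 84K XY, a change of −0.39 ± 0.07 (adjusted p = 0.00121). *KS1* Potri.008G082700 had 1.45, 1.70 and 1.23 FPKM in PagDET2-OE XY, against 2.77, 2.81 and 1.85 FPKM in 84K XY, a change of −0.69 ± 0.22 (adjusted p = 0.0391). Its neighbour *KS1* Potri.008G082400, 13652 bases away on chromosome 8, was lower by a similar size without passing the test (−0.51 ± 0.20, adjusted p = 0.088), and since the pair shares its annotation the split of reads between the copies is uncertain. *KO1* Potri.002G129700, the only copy of its step, had −0.26 ± 0.19 (adjusted p = 0.396). In BA and PS none of the 5 and 6 tested genes of these steps passed.

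The call of *CPS1* Potri.005G210300 in XY was lost without PagDET2-OE replicate 2 or 84K replicate 2 (adjusted p = 0.0673 and 0.0685), and that of *KS1* Potri.008G082700 was lost without any one of 5 of the 6 libraries (adjusted p between 0.052 and 0.162, all but 84K replicate 3). The call of *KS1* was also lost in DESeq2 (adjusted p = 0.104), and limma on log2 FPKM called neither *KS1* (adjusted p = 0.0682) nor *CPS1* (adjusted p = 0.0876). For *CPS1* the genotype effect in XY also differed from that in BA, by −0.66 ± 0.19 on the log2 scale (adjusted p = 0.0185), a call lost without replicate 2 of either genotype in XY (adjusted p = 0.0557 and 0.0507). For *KAO1* Potri.014G179100 the effect in XY differed from that in PS by −0.37 ± 0.10 (adjusted p = 0.0196), a call lost without any one of 5 libraries of PS or XY (adjusted p between 0.0509 and 0.0562). The second *CPS1*, Potri.002G052100, had 127 counts in all, and its difference between the effects in XY and BA (−3.98 ± 1.2, adjusted p = 0.0266) rested on 5 counts in PagDET2-OE XY and 26 in 84K XY, against 15 counts in PagDET2-OE BA and 5 in 84K BA. Leaving out any one of 6 libraries ended that call (adjusted p between 0.0583 and 0.098).

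In the wild-type stem the tested *KS1*, *KO1* and *KAO1* copies were highest in BA on both scales, and the *CPS1* copies were not. *KS1* Potri.008G082400 was at 1.903 FPKM in XY and 2.097 in PS, against 6.354 in BA. *KS1* Potri.008G082700 was at 2.477 FPKM in XY and 2.364 in PS, against 6.121 in BA. Both of these *KS1* copies passed as higher in BA than in either other domain. *KAO1* stood at 13.3 ± 0.6 FPKM in XY and 13.2 ± 0.7 in PS, against 75.0 ± 6.4 FPKM in BA (SD, n = 3 each), with log2 differences of −1.92 ± 0.07 for XY against BA and −2.51 ± 0.07 for PS against BA. *KO1* was at 5.86 ± 1.04 FPKM in XY, 23.5 ± 1.5 in PS and 25.5 ± 0.8 in BA, and its values in PS and BA did not differ beyond their spread (adjusted p = 0.283). *CPS1* Potri.005G210300 was at 2.04 ± 0.24 FPKM in XY, 0.241 ± 0.084 in PS and 2.17 ± 0.13 in BA. XY and BA were thus the domains with most of this *CPS1* copy, and their order depended on the scale, with XY higher by 0.49 ± 0.14 (log2) after TMM and lower by 0.09 with library totals alone. The other *CPS1* copy was the more abundant one in PS, at 0.466 ± 0.084 FPKM.

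The GA 20-oxidases divided the stem between them. Of 8 copies, 3 were high in XY or PS and near 0 in BA. *GA20OX2* Potri.005G184400 (chromosome 5, 20131511 to 20133569) had 21.7, 20.2 and 22.2 FPKM in 84K XY and 22.8, 24.3 and 26.0 in 84K PS, against 0.103, 0 and 0.456 FPKM in 84K BA, a log2 difference of 7.21 ± 0.28 for XY against BA and 6.82 ± 0.28 for PS against BA. *GA20OX2* Potri.012G132400 was largely a PS gene, at 1.18 ± 0.52 FPKM in XY and 14.97 ± 0.36 in PS, against 0.0787 ± 0.0950 in BA. *GA20OX2* Potri.015G134600 was highest in XY, at 5.85 ± 0.36 FPKM, with 3.21 ± 0.41 in PS and 0.154 ± 0.119 in BA.

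The reverse pattern was that of *GA20OX1* Potri.014G073700 (chromosome 14, 5940284 to 5941859), at 0.812 ± 0.082 FPKM in XY and 0.141 ± 0.177 in PS, against 24.2 ± 1.0 in BA. *GA20OX1* Potri.002G151300 had no count in 84K XY and 11 in 84K PS, against 64 counts in 84K BA, which makes it at least 13.1-fold lower in XY than in BA after TMM and 19.6-fold with library totals (with a floor of 3 counts over the group). The summed level of the 8 copies was 27.9 to 30.8 FPKM in XY, 42.9 to 44.5 in PS and 25.5 to 28.5 in BA of 84K, and 1 copy supplied most of it in each domain. That copy was Potri.005G184400 in XY (73.15% of the mean sum) and PS (55.89%), and Potri.014G073700 in BA (90.05%). The other 3 *GA20OX2* models, Potri.005G065400, Potri.005G184200 and Potri.007G103800, had 33, 30 and 34 counts in all and were tested for the genotype in no domain. All 6 copies annotated *GA20OX2* are thus accounted for.

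**Figure D3:**
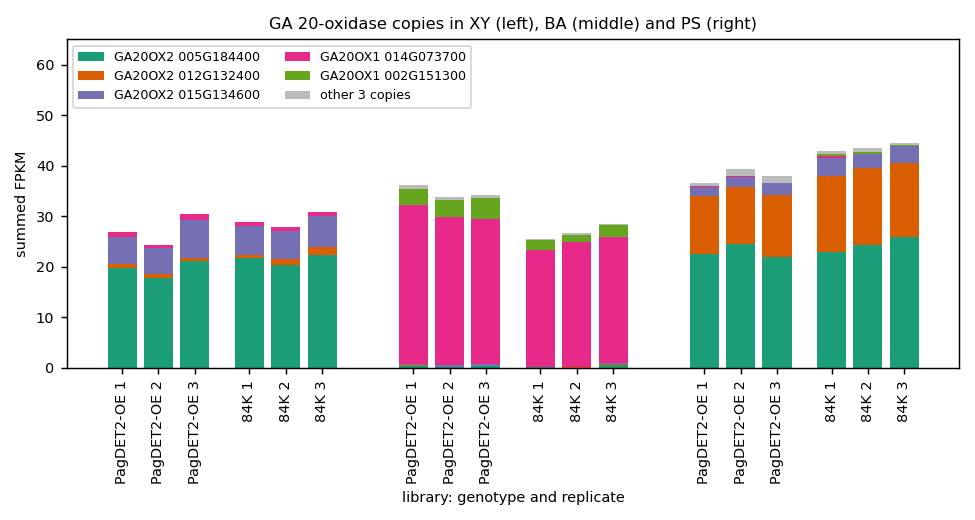
Summed FPKM of the 8 GA 20-oxidase copies in each library (bars, stacked by copy), for PagDET2-OE and 84K replicates in XY, BA and PS. BA is filled by the 2 *GA20OX1* copies and XY and PS by 3 *GA20OX2* copies, and the PagDET2-OE bars are taller than the 84K bars in BA and shorter in PS.

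Under *PagDET2* overexpression, 2 GA 20-oxidase copies passed in BA and 2 others in PS. No copy had enough counts for the test in both of these domains. Which copies could pass in which domain thus followed from their levels there. In BA both *GA20OX1* copies, the 2 tested, were higher. Potri.014G073700 had 31.3, 29.3 and 28.8 FPKM in PagDET2-OE BA, against 23.0, 24.7 and 25.0 FPKM in 84K BA, a log2 fold change of 0.29 ± 0.08 (adjusted p = 0.0274), and Potri.002G151300 had 3.21, 3.48 and 4.17 FPKM, against 2.01, 1.404 and 2.26 FPKM, a change of 0.93 ± 0.25 (adjusted p = 0.0268). Neither group pair overlapped. In PS 2 of the 3 tested *GA20OX2* copies were lower. Potri.012G132400 had 11.6, 11.3 and 12.4 FPKM in PagDET2-OE PS, against 15.1, 15.2 and 14.6 FPKM in 84K PS (−0.33 ± 0.09, adjusted p = 0.0213), and Potri.015G134600 had 1.65, 1.97 and 2.26 FPKM, against 3.54, 2.76 and 3.33 FPKM (−0.69 ± 0.20, adjusted p = 0.0269). The most abundant copy, Potri.005G184400, had 22.4, 24.4 and 21.8 FPKM in PagDET2-OE PS, against 22.8, 24.3 and 26.0 FPKM in 84K PS, which was no difference beyond the spread (−0.07 ± 0.09, adjusted p = 0.644). None of the 4 copies tested in XY passed, with changes between −0.65 and 0.36.

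These 4 calls are small ones. Each was lost without any one of 4 of its 6 libraries, namely PagDET2-OE replicates 1 and 2 and 84K replicates 1 and 2 for Potri.012G132400 (adjusted p between 0.0802 and 0.0919) and for Potri.014G073700 (0.0681 to 0.131), PagDET2-OE replicates 1 and 2 and 84K replicates 1 and 3 for Potri.015G134600 (0.0545 to 0.115), and PagDET2-OE replicates 2 and 3 and 84K replicates 1 and 2 for Potri.002G151300 (0.066 to 0.126). The joint fit of 18 libraries put 3 of them over the threshold (adjusted p = 0.223 for Potri.014G073700, 0.0503 for Potri.002G151300 and 0.213 for Potri.012G132400). The DESeq2 test called none of the 4, at adjusted p-values of 0.123 for Potri.014G073700, 0.0899 for Potri.002G151300, 0.0812 for Potri.012G132400 and 0.109 for Potri.015G134600. The difference between the effects in BA and PS was tested directly in 5 copies. It did not pass for Potri.014G073700 (0.28 ± 0.92, adjusted p = 0.912), Potri.005G184400 (0.31 ± 0.69, adjusted p = 0.857) or Potri.012G132400 (−1.55 ± 1.14, adjusted p = 0.456). In the 84K libraries these had 4, 0 and 1 counts in PS, 1, 0 and 6 in BA, and 0, 1 and 4 in BA, in that order. PagDET2-OE counts there were as low, so these tests do not show that the effects were alike. The difference passed for Potri.015G134600 (1.86 ± 0.56, adjusted p = 0.0347), although this copy had only 1, 2 and 6 counts in the 84K BA libraries and the call was lost without any one of 8 libraries (adjusted p between 0.051 and 0.108). It passed for Potri.002G151300 (adjusted p = 0.00642), where all 3 PagDET2-OE PS libraries had no count, against 5, 4 and 2 counts in 84K PS, at least 3.66-fold lower in PagDET2-OE, while in BA the gene was higher. *GA20OX2* Potri.007G103800 had 5, 10 and 10 counts in PagDET2-OE PS, against 0, 3 and 2 in 84K PS, too few for the test, so that the copies annotated *GA20OX2* did not all lie on one side in PS.

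Of the 4 GA 3-oxidases, which make the active hormone, 3 had counts, with different domains on top. In 84K, *GA3OX1* Potri.001G176600 was at 0.550 ± 0.151 FPKM in XY and 0.503 ± 0.206 in PS, against 5.36 ± 0.51 in BA, and Potri.006G247700 had no count in XY and 3 counts in PS, against 75 counts in BA. Potri.003G057400 (chromosome 3, 8545293 to 8547089) was the PS copy, at 2.19 ± 0.10 FPKM, with 0.581 ± 0.153 in XY and 0.352 ± 0.198 in BA. In PagDET2-OE PS this copy had 1.26, 1.195 and 1.12 FPKM, against 2.104, 2.30 and 2.16 FPKM in 84K PS, a log2 fold change of −0.86 ± 0.25 (adjusted p = 0.0264) with no overlap between the groups. That call was lost without any one library other than 84K replicate 3 (adjusted p between 0.0591 and 0.0976), in DESeq2 (adjusted p = 0.165) and in the joint fit (adjusted p = 0.105). The 2 BA copies were lower in PagDET2-OE without passing, at −0.39 ± 0.16 (adjusted p = 0.132) and −0.47 ± 0.31 (adjusted p = 0.371). Summed over the copies, GA 3-oxidase transcripts stood at 0.712 to 0.826 FPKM in PagDET2-OE XY against 1.06 to 1.19 in 84K XY, at 5.52 to 6.98 in PagDET2-OE BA against 7.47 to 8.81 in 84K BA, and at 1.33 to 1.92 in PagDET2-OE PS against 2.71 to 2.94 in 84K PS. The sums were lower in PagDET2-OE in every domain with no overlap, which is a description and was given no test. In XY no copy had enough counts for the test. There Potri.001G176600 had 4, 7 and 13 counts in PagDET2-OE, against 6, 10 and 8 in 84K. Potri.003G057400 had 7, 4 and 1 counts in PagDET2-OE XY, against 8, 5 and 9 in 84K XY.

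The GA 2-oxidases, which inactivate GA, included a copy that changed in opposite directions in XY and PS. *GA2OX1* Potri.001G378400 (chromosome 1, 39460174 to 39461919) had 1.39, 0.832 and 1.83 FPKM in PagDET2-OE XY, against 4.25, 3.55 and 4.92 FPKM in 84K XY. It had 2.88, 2.36 and 1.95 FPKM in PagDET2-OE BA, against 3.23, 2.93 and 4.69 FPKM in 84K BA. It had 10.4, 12.3 and 12.5 FPKM in PagDET2-OE PS, against 5.58, 5.22 and 8.33 FPKM in 84K PS. So the gene was lower in XY (−1.57 ± 0.29, adjusted p = 0.00086), higher in PS (0.90 ± 0.17, adjusted p = 0.00173) and lay lower in BA without passing (−0.61 ± 0.25, adjusted p = 0.134). The groups were separate in all 3 domains. The effects differed between XY and PS by −2.45 ± 0.35 on the log2 scale (adjusted p = 2.65e-05) and between BA and PS by −1.53 ± 0.33 (adjusted p = 0.00389), while the difference between XY and BA did not pass (−0.92 ± 0.39, adjusted p = 0.125). Each of these 4 calls passed in every alternative run.

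The other *GA2OX1* copy, Potri.011G095600 (chromosome 11, 11625860 to 11627533), moved the other way in XY. It had 22, 16 and 27 counts (2.05, 1.34 and 1.90 FPKM) in PagDET2-OE XY, against 0, 2 and 3 counts (0, 0.198 and 0.235 FPKM) in 84K XY, a log2 fold change of 3.48 ± 0.56 (adjusted p = 0.000255). It entered the test through the PagDET2-OE libraries alone, so some difference was built into its being tested. In BA it had 0.652, 0.790 and 1.33 FPKM in PagDET2-OE, against 1.01, 0.672 and 0.747 FPKM in 84K, too few counts for the test within that domain, and the effect in XY exceeded that in BA by 3.33 ± 0.85 (adjusted p = 0.00933). Both calls passed in every alternative that tested them. In 84K XY Potri.001G378400 was thus the main *GA2OX1* copy by level, and in PagDET2-OE XY the 2 copies had similar levels (1.35 ± 0.50 FPKM for Potri.001G378400 and 1.76 ± 0.38 for Potri.011G095600).

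The 2 other GA 2-oxidase calls were both of copies annotated *GA2OX8*, in different domains. Potri.004G022800 (chromosome 4, 1485694 to 1491839) had 1.03, 1.33 and 1.14 FPKM in PagDET2-OE BA, against 2.47, 2.00 and 2.60 FPKM in 84K BA (−1.01 ± 0.22, adjusted p = 0.00873), with no overlap. One joint fit of the 18 libraries put it just over the threshold (adjusted p = 0.0501). Its change ran from −1.13 to −0.92 over the alternatives, on both sides of 2-fold. It was no DEG without PagDET2-OE replicate 1, 84K replicate 1 or 84K replicate 3 of BA. The same held with replicates 1 and 2 alone and in limma on log2 FPKM. Potri.001G418200 (chromosome 1, 44298193 to 44302205) had 0.748, 0.785 and 0.749 FPKM in PagDET2-OE PS, against 2.09, 1.24 and 2.24 FPKM in 84K PS (−1.25 ± 0.33, adjusted p = 0.017). The call of Potri.001G418200 rested on 27 counts over the PagDET2-OE libraries and 65 over the 84K libraries and was lost without PagDET2-OE replicate 1 or 2 or 84K replicate 1 or 3 (adjusted p between 0.0555 and 0.0807), in DESeq2 (adjusted p = 0.085), in the joint fit (adjusted p = 0.0712) and with replicates 1 and 2 alone (adjusted p = 0.0509). In 84K these copies lay in different domains. Potri.001G418200 had no count in XY or BA, against 65 in PS, and Potri.004G022800 had 22 counts in XY and none in PS, against 143 in BA.

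*GA2OX2* Potri.004G065000 and *GA2OX6* Potri.014G117300 made up much of the remaining GA 2-oxidase level. In 84K *GA2OX2* was at 1.35 ± 0.42 FPKM in XY and 2.64 ± 1.39 in PS, against 7.66 ± 1.39 in BA, and *GA2OX6* was at 3.30 ± 0.42 FPKM in XY and 0.154 ± 0.053 in PS, against 1.60 ± 0.40 in BA. Neither passed for the genotype, with *GA2OX2* at −0.52 ± 0.21 in BA (adjusted p = 0.136) and *GA2OX6* at −0.63 ± 0.25 in XY (adjusted p = 0.0947). Summed over the 15 models, GA 2-oxidase transcripts were at 6.27 to 6.996 FPKM in PagDET2-OE XY against 9.39 to 10.9 in 84K XY, at 12.6 to 15.3 in PagDET2-OE BA against 17.0 to 22.1 in 84K BA, and at 17.0 to 20.1 in PagDET2-OE PS against 12.02 to 14.29 in 84K PS. The sum was lower in PagDET2-OE in XY and BA and higher in PS, again without overlap and without a test. The plot of library values shows both *GA2OX1* copies beside 7 other GA genes.

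**Figure D4:**
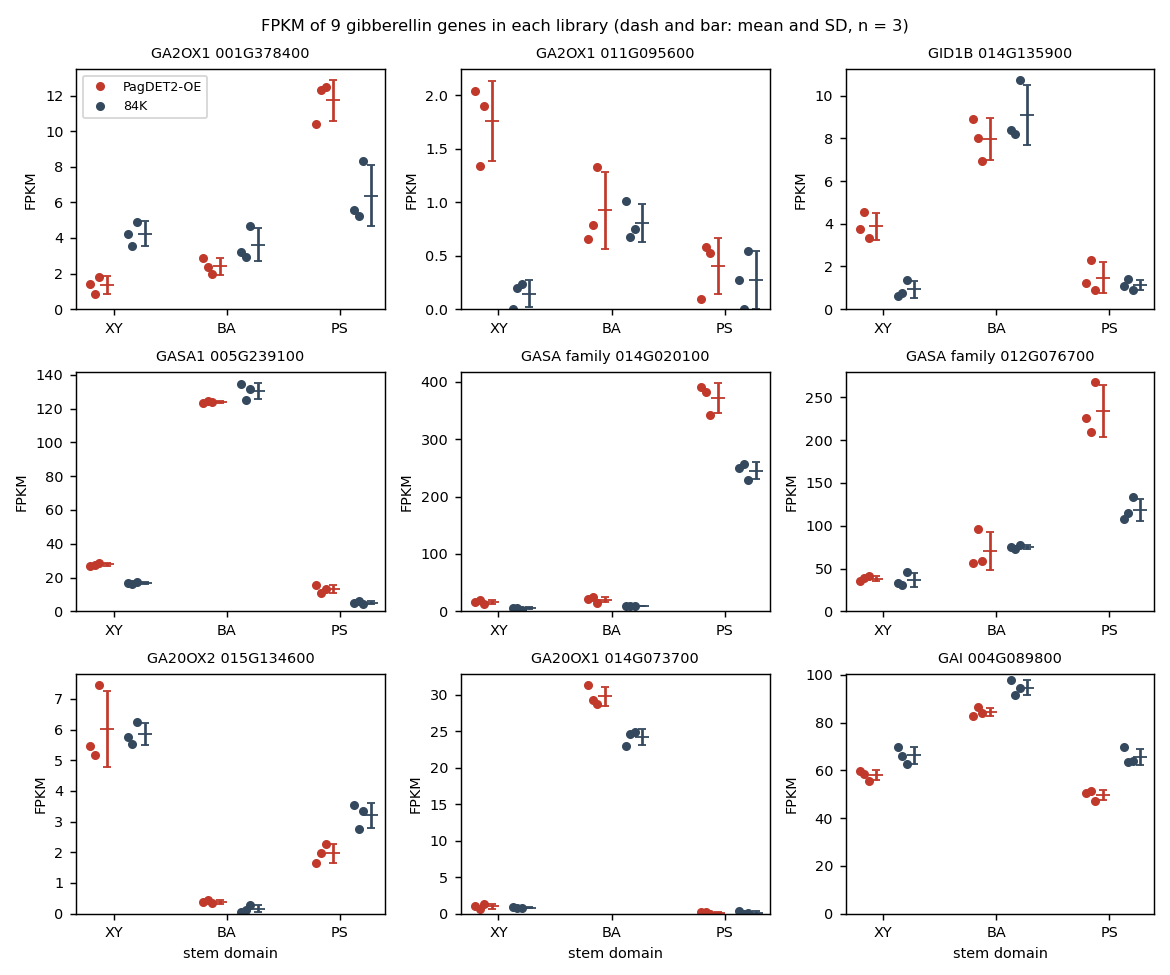
FPKM of 9 GA genes in each library (dots), with the mean and SD of 3 libraries beside them, for PagDET2-OE (red) and 84K (dark blue) in XY, BA and PS. *GA2OX1* Potri.001G378400 sits below 84K in XY and above it in PS, *GID1B* Potri.014G135900 sits above 84K in XY, and the GASA family gene Potri.014G020100 sits above 84K in every domain.

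Among the GID1 receptors a single copy stood out. *GID1B* Potri.014G135900 (chromosome 14, 10382639 to 10384627) had 3.75, 4.56 and 3.32 FPKM in PagDET2-OE XY, against 0.626, 0.748 and 1.38 FPKM in 84K XY, a log2 fold change of 2.07 ± 0.30 (adjusted p = 8e-05). In counts these were 48, 65 and 56, against 7, 9 and 21. In BA, where the gene is most abundant, it had 8.92, 8.04 and 6.94 FPKM in PagDET2-OE, against 8.40, 8.19 and 10.7 FPKM in 84K (−0.20 ± 0.15, adjusted p = 0.421), and in PS it had 1.24, 2.29 and 0.883 FPKM, against 1.08, 1.39 and 0.915 FPKM (0.41 ± 0.35, adjusted p = 0.486). The effect in XY exceeded that in BA by 2.31 ± 0.36 (adjusted p = 5.95e-05), in every alternative run. It exceeded that in PS by 1.68 ± 0.46 (adjusted p = 0.02), which was lost without PagDET2-OE PS replicate 3, 84K PS replicate 2, or 84K XY replicate 1 or 2 (adjusted p between 0.0504 and 0.0795).

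The 2 *GID1C* copies carried most receptor transcripts and lay lower in PagDET2-OE in every domain, by at most 0.32 on the log2 scale. Summed over the 4 GID1 models, transcripts were at 35.1 to 39.1 FPKM in PagDET2-OE XY against 42.0 to 45.2 in 84K XY. The sum was 75.8 to 80.2 in PagDET2-OE BA against 87.5 to 91.6 in 84K BA. In PS it was 41.35 to 43.95 in PagDET2-OE against 46.4 to 48.4 in 84K. These sums were lower in PagDET2-OE each time without overlap, and no test was run on them. Potri.013G028700 had 37.6, 35.7 and 36.7 FPKM in PagDET2-OE BA, against 47.9, 44.1 and 45.1 FPKM in 84K BA (−0.32 ± 0.07, adjusted p = 0.0105), a call lost without PagDET2-OE replicate 2 or 84K replicate 1 (adjusted p = 0.052 and 0.0598). In XY it came close to the threshold (−0.30 ± 0.11, adjusted p = 0.0561), and Potri.005G040600 did so too (−0.26 ± 0.10, adjusted p = 0.0657). In 84K Potri.013G028700 was at 22.8 ± 0.8 FPKM in XY and 26.3 ± 1.5 in PS, against 45.7 ± 2.0 in BA, the order of XY and PS being turned by TMM (0.37 ± 0.08 after TMM and −0.21 with library totals). *GID1B* Potri.014G135900 had the steeper domain pattern, at 0.918 ± 0.406 FPKM in XY and 1.13 ± 0.24 in PS, against 9.11 ± 1.41 in BA. The other *GID1B*, Potri.002G213100, was at 0.0648 ± 0.112 FPKM in XY and 1.29 ± 0.51 in PS, against 1.18 ± 0.14 in BA (−3.62 ± 0.78 for XY against BA).

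Of the 32 DELLA-type models only a few were transcribed in these stems. *GAI* Potri.004G089800 and *RGA* Potri.017G125200, Potri.008G131700 and Potri.010G110700 had mean levels of 69.8, 63.9, 38.5 and 23.3 FPKM over the 18 libraries, while 20 models had no count. *GAI* Potri.004G089800 (chromosome 4, 7648357 to 7650473) had 50.5, 51.2 and 47.2 FPKM in PagDET2-OE PS, against 69.6, 63.6 and 64.0 FPKM in 84K PS, a log2 fold change of −0.39 ± 0.06 (adjusted p = 0.000318) that passed in every alternative run. In XY it had 59.8, 58.3 and 55.6 FPKM, against 69.9, 66.04 and 62.7 FPKM in 84K XY (−0.14 ± 0.06, adjusted p = 0.108), and in BA 82.9, 86.3 and 84.2 FPKM, against 97.9, 91.7 and 94.3 FPKM (−0.16 ± 0.05, adjusted p = 0.0624). PagDET2-OE libraries lay below all 84K libraries in each domain, but only PS passed. The effect in XY was weaker than that in PS by 0.28 ± 0.08 (adjusted p = 0.0268), a call lost without any one of 6 libraries of PS or XY (adjusted p between 0.056 and 0.0862) and with library totals in place of TMM (adjusted p = 0.111).

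*RGA* Potri.008G131700 had 19.1, 18.1 and 18.1 FPKM in PagDET2-OE XY, against 21.9, 23.1 and 23.0 FPKM in 84K XY (−0.24 ± 0.08, adjusted p = 0.0466), a call that no longer passed without any one of the 6 libraries (adjusted p between 0.0624 and 0.145), in DESeq2 (adjusted p = 0.128) or with replicates 1 and 2 alone (adjusted p = 0.054). For *RGA* Potri.010G110700 the effect in XY differed from that in PS by −0.40 ± 0.13 (adjusted p = 0.0472), and 16 of 25 alternatives ended that call. *RGA* Potri.017G125200 differed by at most 0.16 on the log2 scale between the genotypes in each domain. In 84K it was highest in XY on both scales, at 76.9 ± 2.6 FPKM in XY and 59.2 ± 1.3 in PS, against 62.9 ± 2.4 in BA. The order of *GAI* depended on the scale, with 66.2 FPKM in XY and 65.7 in PS, against 94.6 in BA, but no difference of XY from BA beyond the spread after TMM (0.06 ± 0.06, adjusted p = 0.382). *RGA* Potri.010G110700 was lowest in XY, at 9.26 ± 0.91 FPKM in XY and 23.9 ± 1.9 in PS, against 37.9 ± 1.5 in BA. Summed DELLA-type transcripts were at 156 to 165 FPKM in PagDET2-OE XY against 176 to 184 in 84K XY, at 237 to 246 in PagDET2-OE BA against 257 to 268 in 84K BA, and at 178 to 184 in PagDET2-OE PS against 199 to 203 in 84K PS, lower in PagDET2-OE each time without overlap.

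In the GASA family 3 of 7 tested genes passed as higher in PagDET2-OE XY (10% of all genes), 1 of 7 in BA (6.19%) and 4 of 12 in PS (8.08%), and none passed as lower. The GASA family gene Potri.014G020100 (chromosome 14, 1815675 to 1816187) was the only GA gene that passed in all 3 domains. It had 16.7, 19.5 and 12.2 FPKM in PagDET2-OE XY, against 6.46, 5.72 and 2.94 FPKM in 84K XY (1.76 ± 0.28, adjusted p = 0.000221). In BA it had 20.7, 24.1 and 15.1 FPKM in PagDET2-OE, against 9.35, 9.72 and 8.42 FPKM in 84K (1.12 ± 0.20, adjusted p = 0.00235). In PS it had 391, 383 and 342 FPKM in PagDET2-OE, against 250, 257 and 229 FPKM in 84K (0.62 ± 0.06, adjusted p = 1.12e-05). The level was thus highest where the fold was lowest, and the effect in XY exceeded that in PS by 1.18 ± 0.26 (adjusted p = 0.00392).

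*GASA1* Potri.005G239100 (chromosome 5, 24572197 to 24573396) rose in the domains where it was low. It had 27.0, 27.7 and 28.7 FPKM in PagDET2-OE XY, against 17.0, 16.1 and 17.5 FPKM in 84K XY (0.78 ± 0.11, adjusted p = 6.23e-05). It had 15.4, 10.6 and 13.2 FPKM in PagDET2-OE PS, against 4.89, 6.37 and 4.21 FPKM in 84K PS (1.34 ± 0.19, adjusted p = 0.000185). In BA, its main domain, it had 124, 125 and 124 FPKM in PagDET2-OE, against 135, 125 and 132 FPKM in 84K (−0.07 ± 0.06, adjusted p = 0.493). The effect in BA fell short of that in PS by 1.43 ± 0.17 (log2 difference −1.43, adjusted p = 1.82e-06), and the effect in XY exceeded that in BA by 0.89 ± 0.14 (adjusted p = 6.37e-05). Its neighbour Potri.005G239000, a GASA family gene 2589 bases away, had the opposite domain pattern in 84K, with 595 counts (40.9 ± 2.1 FPKM) in XY and 48 counts in PS, against none in BA, at least 322-fold higher in XY than in BA after TMM and 216-fold with library totals. It did not pass for the genotype (−0.04 ± 0.11 in XY, adjusted p = 0.852).

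*GASA3* Potri.T155100, on an unplaced scaffold, had 8.52, 8.08 and 8.82 FPKM in PagDET2-OE XY, against 4.67, 3.70 and 3.13 FPKM in 84K XY (1.22 ± 0.20, adjusted p = 0.000306). In BA it lay at 14.3, 15.2 and 12.4 FPKM in PagDET2-OE, against 10.04, 10.6 and 10.6 FPKM in 84K, without passing. The GASA family gene Potri.012G076700 had 225, 210 and 268 FPKM in PagDET2-OE PS, against 108, 114 and 133 FPKM in 84K PS, a change of 0.998 ± 0.105 (adjusted p = 0.000197) that fell a trace short of 2-fold. In BA it had 56.2, 96.1 and 59.4 FPKM in PagDET2-OE, against 75.3, 72.9 and 77.5 FPKM in 84K, with the genotypes overlapping, and the effects in BA and PS differed by −1.11 ± 0.25 (adjusted p = 0.0121, and 0.0839 with replicates 1 and 2 alone). Potri.015G071500, a GASA family gene of high level, had 535, 516 and 486 FPKM in PagDET2-OE PS, against 387, 361 and 395 FPKM in 84K PS (0.44 ± 0.05, adjusted p = 4.68e-05). Its effect was lower in BA than in PS by 0.35 ± 0.09 (log2 difference −0.35, adjusted p = 0.0106) and lower in XY than in PS by 0.63 ± 0.10 (log2 difference −0.63, adjusted p = 0.000117).

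*GASA4* Potri.017G083000, the most abundant of all GA genes, did not pass in any domain. It was at 540 ± 21.4 FPKM in PagDET2-OE XY against 570 ± 11.6 in 84K XY, at 1074 ± 29.9 in PagDET2-OE BA against 1161 ± 23.5 in 84K BA, and at 914 ± 70.8 in PagDET2-OE PS against 1086 ± 138 in 84K PS. Other genes of the family were highest in PS of 84K. Potri.001G254100 was at 0.394 ± 0.342 FPKM in XY and 314 ± 41 in PS, against 0.430 ± 0.744 in BA, a log2 difference of 9.27 ± 0.50 for PS against BA and −9.15 ± 0.53 for XY against PS. Potri.001G350600 was at 0.375 ± 0.388 FPKM in XY and 32.8 ± 1.6 in PS, against 0.700 ± 0.354 in BA (−5.70 ± 0.33 for XY against PS). Potri.015G071500 was at 26.2 ± 0.9 FPKM in XY and 381 ± 18 in PS, against 243 ± 6 in BA. *GASA1* Potri.005G239100 and *GASA3* were highest in BA and lowest in PS, with 16.9 ± 0.7 FPKM of *GASA1* in XY and 5.16 ± 1.11 in PS, against 131 ± 5 in BA. Potri.019G083900 also had its peak there, at 0.198 ± 0.172 FPKM in XY and 9.14 ± 0.41 in PS, against 17.1 ± 2.7 in BA (−5.74 ± 0.35 for XY against BA).

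Other genes around the pathway were taken from a list of symbols. The models found were F-box proteins of DELLA turnover, phytochrome-interacting factors (PIFs, which DELLA proteins bind), the GA-modifying *CYP714A1* and geranylgeranyl diphosphate enzymes. There were also KNOX, *BLH9* and BZR1-type transcription factors, and models of *SCL3*, *MYB33*, *MYB65*, *SPY*, *SEC* and *XERICO*. Of 56 such models, 41 were tested per domain, and 2 were higher and 11 lower in XY (10% and 9.34% of all genes), 1 higher and 3 lower in BA (6.19% and 5.34%), and 4 higher and 5 lower in PS (8.08% and 6.9%). Both genes higher in XY were *BLH9* copies (Potri.010G197300 and Potri.008G061000), while *BLH9* Potri.009G009900 was among the lower ones there. *XERICO* Potri.014G170400 was higher in PS and lower in BA. The 2 DEGs were both lower in PagDET2-OE XY. *GGR* Potri.015G043400, annotated geranylgeranyl reductase, had 1.01, 0.702 and 0.593 FPKM, against 3.07, 2.14 and 1.505 FPKM in 84K XY (−1.47 ± 0.40, adjusted p = 0.0164), and *KNAT6* Potri.008G188700, a KNOX homeobox gene, had 1.64, 1.16 and 0.718 FPKM, against 2.76, 2.56 and 3.04 FPKM (−1.23 ± 0.31, adjusted p = 0.00981). *PIF4* Potri.002G055400 was lower in XY (−0.85 ± 0.19, adjusted p = 0.00494) and in PS (−0.63 ± 0.12, adjusted p = 0.00172). *CYP714A1* Potri.010G116300, whose Arabidopsis counterpart modifies GA, was lower in PS (−0.53 ± 0.10, adjusted p = 0.00195), and *SLY1* Potri.014G022100, the F-box protein that takes DELLA proteins to degradation, was higher there (0.58 ± 0.12, adjusted p = 0.00315). The other *SLY1* copies did not pass in PS, with Potri.002G122300 at 47 FPKM in PagDET2-OE against 42.7 in 84K and Potri.010G060800 at 13.57 against 13.62. *BZR1* Potri.005G126400 was lower in XY (−0.32 ± 0.08, adjusted p = 0.011), BA (−0.27 ± 0.06, adjusted p = 0.014) and PS (−0.28 ± 0.08, adjusted p = 0.0326), and no other *BZR1* copy passed.

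Markers of tissue makeup moved with the genotype in some domains. Of all genes tested, 10% passed as higher and 9.34% as lower in XY. These shares were 6.19% and 5.34% in BA and 8.08% and 6.9% in PS. In XY, 11 of 24 tested markers of developing xylem were higher and none lower, with a summed level of 8119 to 8283 FPKM in PagDET2-OE XY, against 7280 to 7380 in 84K XY. In BA, 10 of 17 were lower and none higher, with a sum of 254 to 268 FPKM in PagDET2-OE BA, against 355 to 381 in 84K BA. Nuclear photosystem genes passed as higher in PS for 9 of 15 and as lower for 1 (3539 to 4050 FPKM in PagDET2-OE PS, against 3067 to 3371 in 84K PS), and as higher in BA for 6 of 13 (1139 to 1147 FPKM in PagDET2-OE BA, against 995.3 to 1029 in 84K BA). Apex markers passed as lower in XY for 4 of 10 and as higher for none (107.3 to 115.1 FPKM in PagDET2-OE XY, against 131.2 to 137.2 in 84K XY). These included *KNAT6* Potri.013G008600, Potri.008G188700 and Potri.012G087100, which are also counted among the further pathway genes above. In 84K PS these *KNAT6* copies were at 28.58, 7.742 and 60.18 FPKM, against 28.57, 2.147 and 80.63 in 84K BA. Epidermis markers passed as higher in PS for 3 of 8 and as lower for 1 (174.8 to 190.2 FPKM in PagDET2-OE PS, against 158.7 to 167.6 in 84K PS). Phloem markers summed to 394.1 to 419.5 FPKM in PagDET2-OE XY, against 465.7 to 492.1 in 84K XY, with 1 of 1 tested passing as lower. Nearly all of that sum was *SUC2* Potri.019G085800 (406.7 FPKM in PagDET2-OE XY and 477.4 in 84K XY), which was at 491.5 in 84K BA. In PS the phloem sum was 39.62 to 44.42 FPKM in PagDET2-OE, against 49.11 to 55.61 in 84K, with 1 of 6 tested passing as lower. In BA 2 of 7 passed as higher and 1 as lower (754.1 to 772 FPKM in PagDET2-OE BA, against 750.9 to 764.3 in 84K BA). Cambium markers were at 608 to 645 FPKM in PagDET2-OE XY, against 658 to 700 in 84K XY, and at 892 to 944 in PagDET2-OE BA, against 904 to 944 in 84K BA. Their part in the changes of the GA genes was not tested.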

How the data were processed

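RNA was sequenced from 18 libraries, 3 per genotype and stem domain. Per the labels and the study's methods, the authors aligned reads with HISAT2 2.0.4 to the *Populus trichocarpa* genome and quantified transcripts with StringTie 1.3.0. The deposited table gives raw counts per gene model, and the authors' FPKM beside them divides those counts by transcript length and library total. Whether counting used strand is not given in the sources used here, and reads of the hybrid 84K counted on *P. trichocarpa* models may be split between near-identical copies. The deposited table's gene annotation supplied symbols, descriptions and coordinates.

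Counts were tested with edgeR 4.0.16 (R 4.3.3) by the robust quasi-likelihood test after TMM and filterByExpr (minimum count 10, minimum total 15), within each domain for the genotype, over the 84K libraries for domains, and over all 18 libraries for differences between domains in the genotype effect. P-values were adjusted by Benjamini-Hochberg over all genes tested. A group without counts was given a floor of 3 counts over the group, and such bounds cover counting error only. Nothing in the labels says which libraries came from separate lines, so p-values measure the spread between these libraries.

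Genes named are those called for the genotype, those with a difference between domains, the 6 smallest adjusted p-values per domain among smaller changes, the most abundant gene of each role, the 3 largest domain changes each way, and every *GA20OX2* copy. Members and lists were chosen with earlier results of these data known. Homonyms (4 further pathway genes, 2 shoot apex and 13 epidermis models whose symbol belongs to an unrelated protein) were left out after their values were seen. Alternatives were DESeq2 1.42.0, limma 3.58.1 on log2(FPKM + 0.1), other size factors and filters, one joint fit, a replicate block and leaving out each library. Replicates 1 and 2 alone and library totals without TMM were added after the data were seen.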

Additional observations from a re-analysis of the deposited data

Results flagged for a closer look

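For 14 GA genes the effect of *PagDET2* overexpression differed between domains in the joint model (edgeR's quasi-likelihood test, Benjamini-Hochberg adjusted), and the values below are differences of log2 fold changes.

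Between XY and BA, the effect was lower in XY for *CPS1* Potri.002G052100 (−3.98, adjusted p = 0.0266) and *CPS1* Potri.005G210300 (−0.66, adjusted p = 0.0185). It was higher in XY for *GA2OX1* Potri.011G095600 (3.33, adjusted p = 0.00933), *GID1B* Potri.014G135900 (2.31, adjusted p = 5.95e-05) and *GASA1* Potri.005G239100 (0.89, adjusted p = 6.37e-05).

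Between XY and PS, it was lower in XY for *KAO1* Potri.014G179100 (−0.37, adjusted p = 0.0196), *GA2OX1* Potri.001G378400 (−2.45, adjusted p = 2.65e-05), *RGA* Potri.010G110700 (−0.40, adjusted p = 0.0472) and Potri.015G071500 (−0.63, adjusted p = 0.000117). It was higher in XY for *GID1B* Potri.014G135900 (1.68, adjusted p = 0.02), *GAI* Potri.004G089800 (0.28, adjusted p = 0.0268) and Potri.014G020100 (1.18, adjusted p = 0.00392).

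Between BA and PS, it was higher in BA for *GA20OX1* Potri.002G151300 (5.69, adjusted p = 0.00642), a value that rests on PagDET2-OE PS libraries without a count, and *GA20OX2* Potri.015G134600 (1.86, adjusted p = 0.0347). It was lower in BA for *GA2OX1* Potri.001G378400 (−1.53, adjusted p = 0.00389), *GASA1* Potri.005G239100 (−1.43, adjusted p = 1.82e-06), Potri.012G076700 (−1.11, adjusted p = 0.0121) and Potri.015G071500 (−0.35, adjusted p = 0.0106).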

How the results depend on the processing

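DEG counts for the genotype moved most with the threshold. Without the fold threshold XY had 10 against 5, BA 5 against 2 and PS 10 against 2. In PS DESeq2 gave 1 and no filter on low counts gave 4. In BA replicates 1 and 2 alone, limma on log2(FPKM + 0.1) and the joint fit of 18 libraries each gave 1. Leaving out one library gave 5 to 6 in XY, 1 to 2 in BA (1 without PagDET2-OE replicate 2 or 84K replicate 1) and 1 to 3 in PS (1 without 84K replicate 1). Differences between domains numbered 3 to 7 for XY against BA (3 without PagDET2-OE XY replicate 2), 4 to 8 for XY against PS (4 without 84K XY replicate 1) and 5 to 8 for BA against PS when one library was left out. With replicates 1 and 2 alone they numbered 9 for XY against BA and 10 for BA against PS.

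Library totals in place of TMM turned 4 domain differences of 84K, to −0.087 for *CPS1* Potri.005G210300 in XY against BA, and in XY against PS to −0.19 for *GA20OX2* Potri.005G184400, −0.14 for *KS1* Potri.008G082400 and −0.21 for *GID1C* Potri.013G028700. They also moved the split of XY against BA to 6 higher and 26 lower, against 7 and 18, and that of the effects in XY against PS to 2 higher and 8 lower, against 3 and 4. The causes were not tested.

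Same-numbered libraries were weakly correlated in their deviations from the group means (−0.0172 to 0.146 over 9 pairs of groups). The main tests took no account of replicate number. With a replicate block the differences between XY and PS numbered 11 against 7, and all 25 genotype calls of single genes passed again. Between the genotypes in BA 5 of 6 libraries correlated best with their own number. Between PS and BA of 84K 6 of 6 did so (0.103, 0.0803 and 0.145, against at most 0.0333 for unequal numbers). There the count of 26 DEGs was the same with the block. Genes of under 20 counts, 42 of the 97, were too shallow for any statement.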
